A study of Mus musculus with 12 samples.

Results

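A set of 9 genes of cytokine signalling was described in the cerebral cortex of mice that had lost Nsd1 in the neural lineage: the receptor chain genes Crlf2, Il7r, Il4ra, Il2rg and Il13ra1 and the Janus kinase genes Jak1, Jak2, Jak3 and Tyk2. They were picked by symbol, 9 of the 34193 gene rows of the deposited table, and all 9 had a row and a mean of at least 10 normalised reads. Crlf2 stood at the centre of the choice because of its lower level in the cKO, so its difference between genotypes is given as a description without a test. The tested mice were 8 weeks old and carried Nsd1 flx/flx with Nestin-cre +/- (cKO, 6 libraries). The control mice, of the same age, carried Nsd1 flx/flx with Nestin-cre -/- (6 libraries). Both groups thus have loxP-flanked Nsd1 alleles, only the cKO carries Cre, and an effect of Cre itself cannot be told apart from that of the deletion. The Nestin promoter drives Cre in neural progenitors and their neuronal and glial progeny, and microglia, vessels and blood cells in the tissue arise largely from other lineages. NSD1 is an enzyme that methylates lysine 36 of histone H3. By its title, the study concerns how this mark shapes non-CG methylation of DNA in neurons.

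Cytokine receptors of this family have no enzyme of their own. A ligand brings a pair of chains together, each chain carries a Janus kinase (JAK) on its inner side, and the kinases phosphorylate STAT proteins that move to the nucleus and switch on genes. CRLF2 is the chain that binds thymic stromal lymphopoietin (TSLP). It carries JAK2 and pairs with the IL-7 receptor chain encoded by Il7r, which carries JAK1, and the pair signals mainly through STAT5. IL-4 receptor alpha, encoded by Il4ra, pairs either with the common gamma chain (Il2rg, which carries JAK3) or with Il13ra1 (which can carry TYK2 or JAK2), and both pairs act mainly through STAT6. These cytokines are best known from immune cells in type 2 (allergic and anti-parasite) responses. In brain, IL-4 and IL-13 are known for their action on microglia. Jak1, Jak2 and Tyk2 are broadly expressed, whereas Jak3 and Il2rg are mainly used by blood cells.

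The 2 genes for the chains of the TSLP receptor differ in the letters around their starts, and both windows are shown because Crlf2 is the gene with the lower level in cKO cortex and Il7r codes for its partner. Each window holds 250 bases before and 50 bases after the start, 300 bases in all, 5′ to 3′ on the gene's own strand, from RefSeq on build GRCm38.p6. Capitals mark CG dinucleotides. The Crlf2 window lies at chr5:109558944-109559243 on the minus strand and the Il7r window at chr15:9529827-9530126 on the minus strand.
Crlf2: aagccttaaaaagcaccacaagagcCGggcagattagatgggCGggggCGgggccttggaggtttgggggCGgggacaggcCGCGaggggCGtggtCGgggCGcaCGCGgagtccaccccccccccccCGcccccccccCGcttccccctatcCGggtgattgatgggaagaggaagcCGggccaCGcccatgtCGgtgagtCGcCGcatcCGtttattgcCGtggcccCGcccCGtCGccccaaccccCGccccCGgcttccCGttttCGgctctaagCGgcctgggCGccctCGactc
Il7r: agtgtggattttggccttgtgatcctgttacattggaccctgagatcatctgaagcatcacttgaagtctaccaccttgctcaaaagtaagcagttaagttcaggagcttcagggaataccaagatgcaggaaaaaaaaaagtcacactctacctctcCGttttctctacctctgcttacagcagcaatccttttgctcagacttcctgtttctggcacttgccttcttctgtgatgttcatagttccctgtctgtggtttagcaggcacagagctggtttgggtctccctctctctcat
The Crlf2 window held 31 CG dinucleotides and 71.7% G or C, and 89.4% of 32851 promoter windows of the same length held fewer CGs, with a median of 7. The Il7r window held 1 CG, with 45.7% G or C. The letters TTCNNNGAA, the spacing that STAT proteins in general bind, and the wider spacing that STAT6 favours (TTC, any 4 bases, GAA), were searched on both strands, as were TATAAA and CCAAT. None of the 4 was found in the Crlf2 window. The Il7r window held 1 TTCNNNGAA, which begins at base 109 of the window, and 1 CCAAT. These letters occur in 8.30% (TTCNNNGAA), 6.95% (the wider spacing), 13.6% (TATAAA) and 37.4% (CCAAT) of all windows. Windows were found for 9 of the 9 genes, and their CG counts ran from 1 in Il7r and 3 in Il2rg to 31 in Crlf2 and 44 in Jak2. Methylation of these sites is not analysed here.

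Recovered gene reads came to 14.6 to 27 M in cKO libraries and 10.5 to 21.1 M in control libraries, so that 3 reads correspond to 1.98 to 5.64 normalised reads. In each genotype, libraries 1 to 3 hold reads of Y-linked genes and libraries 4 to 6 do not, and the fits carry a term for this split. Mitochondrial ribosomal RNA took 14.19% and 11.45% of reads in control libraries 4 and 5, against 1.46% to 6.00% in the other 10. Cortical markers were as the tissue label says, with summed excitatory neuron markers of 93411 to 113099 normalised reads in cKO and 107162 to 123328 in control libraries. Nsd1 itself, whose deposited value is for the gene and not for the deleted part alone, had a lowest value of 2853, a median of 3247 and a highest of 3617 normalised reads in cKO libraries, against 3214, 4437 and 5269 in control libraries. The groups overlapped, with means of 3251 ± 299 in cKO and 4235 ± 850 in control (SD, n = 6 each), a ratio of 0.768. It was not called (log2 difference -0.36, SE 0.12, limma adjusted p = 0.383), so the genotype labels are only weakly checked by it. Among 14397 genes tested, 120 (0.834%) had an adjusted p (Benjamini-Hochberg, limma) under 0.05 and are referred to as called, 110 higher in cKO (0.764%) and 10 lower (0.0695%).

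Crlf2 transcripts stood at 99.6 (lowest), 130 (median) and 185 (highest) normalised reads in cKO libraries, against 203, 261 and 298 in control libraries. Every cKO library was below every control library. Over all tested genes this held for 28 (0.194%), and since the gene was picked on this contrast, nothing is read from its place among them. The means were 135 ± 28.6 in cKO and 251 ± 38.0 in control (SD, n = 6 each), a ratio of 0.537. On the log2(value + 1) scale the difference, cKO minus control, was -0.90 (SE 0.14, 95% interval -1.19 to -0.61). That interval does not allow for the choice of the gene on this contrast, and it is not read as a test. The authors' deposited table gives -0.89. These values rest on 84 to 346 reads per library, and no other annotated gene shares its exons in GENCODE release M21, which is on GRCm38. In whole tissue, fewer cells that make a transcript and less transcript per cell cannot be told apart.

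**Figure D1:**
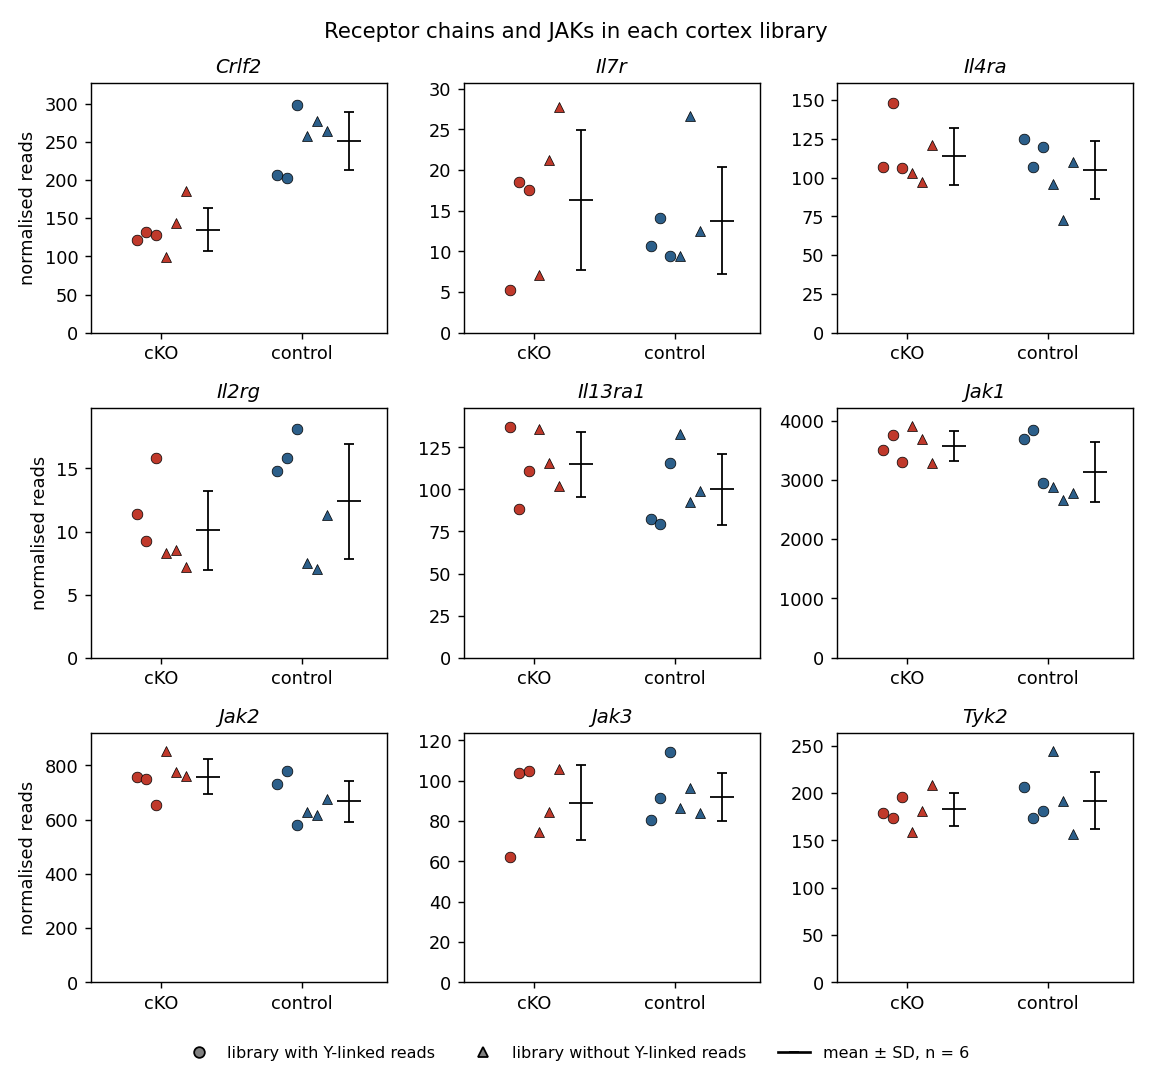
Normalised reads (vertical axes, each from 0) of the 9 genes in the 6 cKO (left, red) and 6 control (right, blue) libraries; circles are libraries with Y-linked reads, triangles those without, and the bar is the mean with its SD. Crlf2 is the panel in which the groups do not overlap, at 99.6 to 185 in cKO and 203 to 298 in control; in the other 8 panels they overlap.

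Crlf2 was lower in cKO in both sets of libraries. With every cKO library below every control library this had to be so, and it adds no support. In libraries with Y-linked reads Crlf2 averaged 127 normalised reads in cKO and 236 in control, a log2 difference of -0.87 (SE 0.20). In those without, it averaged 143 in cKO and 266 in control, a log2 difference of -0.94 (SE 0.20). The gap between these differences was 0.073 (SE 0.28, 95% interval -0.52 to 0.67, limma adjusted p = 0.938 over all genes), which did not exceed its error. Without control libraries 4 and 5 the Crlf2 difference was -0.89. Leaving out any single library gave -0.99 to -0.79.

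Il7r, the partner of CRLF2 in the TSLP receptor, was scarce: 5.30, 18.0 and 27.8 normalised reads (lowest, median, highest) in cKO libraries, against 9.39, 11.6 and 26.6 in control libraries. Its range in cKO enclosed its range in control. The means were 16.3 ± 8.59 in cKO and 13.8 ± 6.52 in control (SD, n = 6 each), and its log2 difference of 0.12 had an SE of 0.37 and a 95% interval of -0.65 to 0.90. With only 5 to 28 reads per library, the interval covers both rises and falls, and leaving out single libraries gave -0.042 to 0.36.

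Il4ra, the alpha chain shared by the IL-4 and IL-13 receptors, had 97.2, 107 and 148 normalised reads in cKO libraries, against 72.7, 109 and 125 in control libraries. The highest value was a cKO library and the lowest a control library, with the others mixed. Its log2 difference was 0.12 (SE 0.13, 95% interval -0.15 to 0.40), and 0.0015 without control libraries 4 and 5. Il2rg, the common gamma chain, had 7.2, 8.88 and 15.8 normalised reads in cKO libraries, against 6.99, 13 and 18.1 in control libraries. Its log2 difference was -0.24 (SE 0.23, 95% interval -0.73 to 0.25), from 4 to 21 reads per library. It was -0.43 without control libraries 4 and 5 and -0.15 without cKO library 2. Il13ra1, which binds IL-13 and completes the second IL-4 receptor, had 88.4, 113 and 137 normalised reads in cKO libraries, against 79.2, 95.6 and 133 in control libraries. All but 1 cKO library lay above the control median, the ranges overlapped widely, and the log2 difference was 0.20 (SE 0.14, 95% interval -0.10 to 0.51).

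Jak1, the kinase common to the TSLP, IL-4 and IL-13 receptors, had 3283, 3595 and 3906 normalised reads in cKO libraries, against 2660, 2914 and 3839 in control libraries. The 6 cKO libraries were close together and all above the control median, and 2 controls (1 and 2) lay as high as they did. The log2 difference was 0.20 (SE 0.094, 95% interval 0.0032 to 0.40). Without control libraries 4 and 5 it was 0.14. Jak2, the kinase of CRLF2 and of the hormone receptors that pair with themselves, had 653, 759 and 853 normalised reads in cKO libraries, against 581, 651 and 780 in control libraries. All 6 cKO libraries again lay above the control median and the ranges overlapped, with a log2 difference of 0.18 (SE 0.091, 95% interval -0.0079 to 0.38), or 0.12 without control libraries 4 and 5.

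Jak3, the kinase of the common gamma chain, had 62.1, 94.0 and 106 normalised reads in cKO libraries, against 80.6, 89.0 and 114 in control libraries. The 2 lowest libraries were cKO and the highest was a control, around a log2 difference of -0.063 (SE 0.15, 95% interval -0.38 to 0.25), which leaving out single libraries moved between -0.13 and 0.051. Tyk2, the kinase of interferon and IL-12 family receptors and of IL-13 receptor alpha 1, had 159, 180 and 209 normalised reads in cKO libraries, against 157, 187 and 244 in control libraries. The cKO range lay within the control range, with a log2 difference of -0.063 (SE 0.11, 95% interval -0.30 to 0.18), or 0.051 without control libraries 4 and 5. None of the 8 genes other than Crlf2 was called, with limma adjusted p over all genes from 0.506 (Jak1) to 0.909 (Il7r), beside 0.834% of all tested genes that were. The groups overlapped for all 8, beside 1.01% of tested genes (145) whose groups did not. Jak1 had an unadjusted p of 0.0469, as did 9.73% of all tested genes under 0.05.

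**Figure D2:**
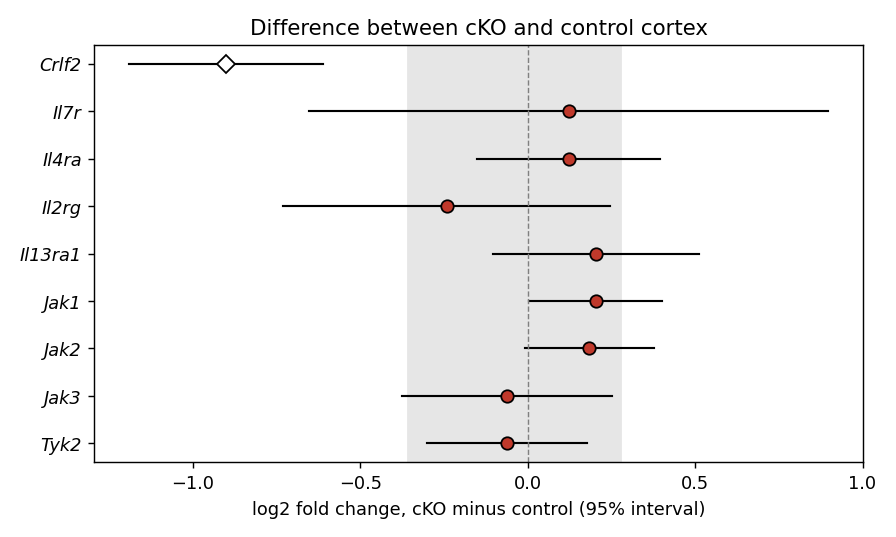
Log2 difference, cKO minus control, of each gene on log2(value + 1) normalised reads (horizontal axis) with its 95% interval from limma; the open diamond is Crlf2, whose difference entered the choice of genes, and the grey band leaves out the lowest and the highest 5% of all 14397 tested genes. Crlf2 lies at -0.90, to the left of the band, and because of its choice neither its place nor its interval is a test. The 8 others lie between -0.24 and 0.20, inside the band.

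Exons of 5 of the 9 genes share bases with a second annotated gene, so some of their reads are of uncertain origin, since the sources used here do not say whether counting used the strand. The shared part was 30.5% of the exon length of Il2rg (Gm20489, same strand), 9.51% of Il4ra (Gm44876, opposite strand), 8.07% of Tyk2 (1700084C06Rik, opposite strand) and 7.55% of Jak3 (Insl3, same strand). In Jak1 it was 4 bases (Raver2).

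Levels of different genes were compared per kilobase of merged exon in GENCODE release M21, a length of 1495 bases for Crlf2 and up to 7227 bases for Jak1. The order in cKO cortex ran from Jak1 (495 normalised reads per kb) over Jak2 (151), Crlf2 (90.3), Il13ra1 (31.0), Tyk2 (26.6), Il4ra (19.0), Jak3 (16.7) and Il2rg (4.22) to Il7r (3.49). In control cortex Crlf2, at 168 per kb, averaged above Jak2, at 133 per kb. Jak2 per kb exceeded Crlf2 in 6 of 6 cKO libraries and in 2 of 6 control libraries. This change of order largely restates the lower Crlf2 level on which the gene was chosen. Jak1 over Jak2, Crlf2 over Il13ra1, Tyk2 over Il4ra and Jak3 over Il2rg held in all 12 libraries. The other neighbours did not differ beyond their spread: Il13ra1 exceeded Tyk2 in 4 of 6 cKO and 3 of 6 control libraries, Il4ra exceeded Jak3 in 5 of 6 and 3 of 6, and Il2rg exceeded Il7r in 3 of 6 and 5 of 6.

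**Figure D3:**
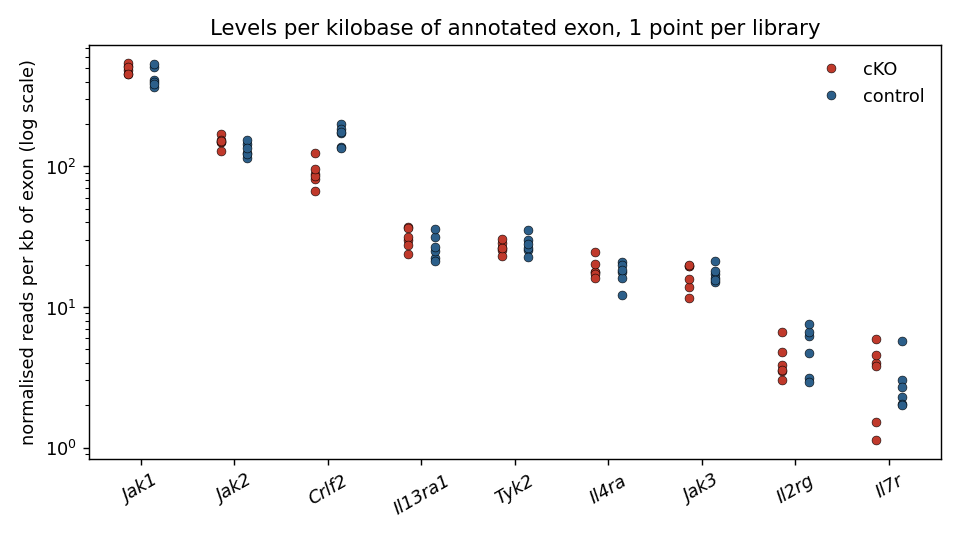
Normalised reads per kilobase of annotated exon (vertical axis, log scale) of the 9 genes in each cKO (left, red) and control (right, blue) library, 1 point per library, ordered by their mean in cKO. Jak1 and Jak2 lead, Crlf2 follows in cKO at 90.3 and is above Jak2 in 4 of 6 controls, and Il2rg and Il7r are lowest at 3.49 to 4.22 in cKO.

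Transcripts of the TSLP receptor chains were far from equal in the whole tissue, which does not measure receptor protein or levels within a cell. Crlf2 per kb exceeded Il7r per kb 22.5 times in the median cKO library (20.8 to 71.3) and 63.1 times in the median control library (32.5 to 98.1). Crlf2 made up 60.5% ± 5.31 of the summed per-kilobase level of the 5 receptor chains in cKO and 75.9% ± 2.68 in control (SD, n = 6 each). Il13ra1 made up 21.4% ± 5.42 in cKO and 12.2% ± 1.74 in control, and these shares must add up, so a lower Crlf2 raises the others. Among the 4 kinases, Jak1 was 71.8% ± 1.28 of their sum in cKO and 70.7% ± 2.00 in control, and Jak2 was 21.9% ± 1.04 in cKO and 21.8% ± 1.47 in control. Jak3 was 2.44% ± 0.583 in cKO and 2.87% ± 0.590 in control. Tyk2 was 3.90% ± 0.583 in cKO and 4.65% ± 0.949 in control (SD, n = 6 each throughout).

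The split of the libraries by Y-linked reads played no part in the choice of the genes. None of the 9 was called for it, beside 0.0764% of tested genes (11). The largest difference was that of Il2rg, an X-linked gene, at 0.69 (with minus without Y-linked reads, SE 0.23, limma unadjusted p = 0.00849, adjusted p = 0.373). It averaged 12.1 normalised reads in cKO libraries with and 8.01 in cKO libraries without these reads, and 16.2 and 8.59 in the same sets of controls. The other X-linked gene, Il13ra1, differed by -0.16 (SE 0.14, adjusted p = 0.670), and Crlf2 by -0.16 (SE 0.14, adjusted p = 0.648).

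The genotype difference was also compared between the sets. For Jak1 it was 0.019 (SE 0.12) with Y-linked reads, at means of 3524 in cKO and 3496 in control. Without them it was 0.39 (SE 0.12), at means of 3624 in cKO and 2768 in control. The gap between the sets was -0.37 (SE 0.17, 95% interval -0.72 to -0.015, limma unadjusted p = 0.0422, adjusted p = 0.562), so it did not pass. The set without Y-linked reads holds control libraries 4 and 5, whose part in this was not tested. Jak2 followed the same order, 0.054 (SE 0.12) with and 0.31 (SE 0.12) without Y-linked reads, a gap of -0.26 (SE 0.17, adjusted p = 0.608). No gene of the 14397 was called for such a gap by limma or by edgeR (0%), against 1263 (8.77%) at an unadjusted p under 0.05 in limma.

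**Figure D4:**
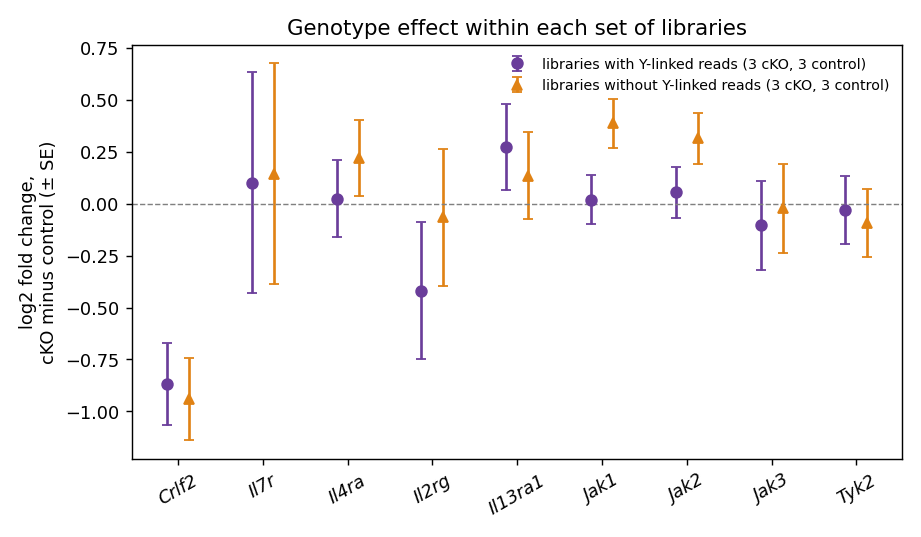
Log2 difference, cKO minus control (vertical axis, ± SE), of each gene in the libraries with Y-linked reads (circles) and in those without (triangles), 3 cKO and 3 control libraries in each set. Crlf2 lies at -0.87 and -0.94 in the sets, whereas Jak1 lies at 0.019 and 0.39.

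The rest of the pathway was read through 8 lists with 106 listed genes (4 inhibitor genes count in 2 lists), of which 71 passed the filter. Of these 71, 2 were called, Stat6 and Stat4, both higher in cKO, beside 0.834% of all tested genes called and 0.764% called higher. The median log2 difference of the 71 was 0.017, beside -0.00069 over all tested genes, with 40 above and 31 below 0, beside 50.1% below 0 over all tested genes. These lists were put together with earlier results known, and their counts are a description.

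Of 13 ligand genes, Il15 and Il33 passed the filter and neither was called. Tslp, the ligand of CRLF2, had 19 reads in all 12 libraries together, 2.02 ± 1.89 normalised reads in cKO and 0.869 ± 0.487 in control (SD, n = 6 each), both near or under the value of 3 reads. Il7 gave 21 reads in all, and Il4 gave 2, both in 1 cKO library. Il2, Il3, Il9, Il13 and Csf2 had no read in any library. Il15, which signals through the common gamma chain, had 3.56, 9.61 and 14.5 normalised reads in cKO libraries, against 9.68, 16.0 and 28.2 in control libraries, overlapping (log2 difference -0.90, SE 0.35, adjusted p = 0.457). Il33, an alarmin that acts upstream of type 2 cytokines through a receptor without JAKs, averaged 773 ± 141 in cKO and 634 ± 85.1 in control (SD, n = 6 each; 0.28, SE 0.12, adjusted p = 0.482).

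Of 14 genes listed as other common gamma and type 2 receptor chains, 7 were tested and none was called. The list is broad and also holds chains of other receptor families: Csf2ra, Csf2rb, Csf2rb2, Il3ra, Il5ra, Il1rl1, Il1rap and Il17rb. Csf2ra, the GM-CSF receptor alpha chain, had 43.9, 56.5 and 71.2 normalised reads in cKO libraries, against 74.8, 81.4 and 101 in control libraries. Every cKO library was below every control library, as for 0.194% of tested genes, and the log2 difference of -0.56 (SE 0.13) had a limma adjusted p of 0.0613. It passed with DESeq2 (adjusted p = 0.0239), after removal of a trend with transcript length (0.0472) and without cKO library 3 (0.0465), and the range over all alternatives was 0.0239 to 0.333. None of 11 tested gp130 and IL-12 family chains was called. Among them Il6st, the gp130 chain of IL-6 family receptors, averaged 1950 ± 131 in cKO and 1573 ± 141 in control (SD, n = 6 each), with every cKO library above every control library, as for 0.813% of tested genes (117), at a log2 difference of 0.31 (SE 0.079) and adjusted p = 0.112. It passed with DESeq2 (adjusted p = 0.0149, range over the alternatives 0.0149 to 0.347). Of 6 tested interferon and IL-10 family chains none was called, and the difference farthest from 0 was that of Ifnar1 at 0.10 (SE 0.078, adjusted p = 0.617), or 0.032 without control libraries 4 and 5. The 4 receptors that pair with themselves and use JAK2 gave no call. Prlr, the prolactin receptor, averaged 26.7 ± 10.4 in cKO and 13.1 ± 5.45 in control (SD, n = 6 each; log2 difference 1.01, SE 0.31, adjusted p = 0.288), with ranges of 17.5 to 45.2 in cKO and 6.16 to 18.8 in control.

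Stat6 and Stat4 were the called genes, 2 of the 7 STAT factors. Stat6, the main effector of IL-4 receptor alpha, had 427, 489 and 547 normalised reads in cKO libraries, against 175, 210 and 256 in control libraries. Its lowest cKO library was well above its highest control library, at means of 494 ± 42.2 in cKO and 212 ± 32.2 in control (SD, n = 6 each), a log2 difference of 1.23 (SE 0.089, limma adjusted p = 1.21e-06). Stat4, the effector of IL-12, had 31.7, 42.7 and 58.7 normalised reads in cKO libraries, against 10, 18.9 and 27.3 in control libraries. Its log2 difference was 1.22 (SE 0.22; adjusted p = 0.0106 in limma), also with no overlap. Of its exon length, 26.7% is shared on the same strand with Gm28177. Of the STAT genes that were not called, Stat2 differed by 0.093, Stat3 by -0.023, Stat5a by -0.22 and Stat5b by -0.12. Stat5a and Stat5b are the factors that the TSLP receptor mainly uses. Stat5b averaged 511 ± 34.2 in cKO and 555 ± 14.9 in control (SD, n = 6 each; SE 0.071, adjusted p = 0.55).

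Below the STATs, none of 21 genes listed as JAK-STAT inhibitors and none of 17 tested STAT5 and STAT6 target genes was called. The inhibitor list also holds Sh2b1 and Ptpn11, which are not simply inhibitors. Of the 17 targets, 12 lay above and 5 below 0, and 4 had an unadjusted p under 0.05, beside 9.73% of all tested genes. The smallest p among them were those of the cyclin D genes of the cell cycle, at adjusted p = 0.168 for Ccnd1 and 0.245 for Ccnd2. Ccnd1 averaged 1251 ± 112 in cKO and 1023 ± 116 in control (log2 difference 0.29, SE 0.080), and Ccnd2 2520 ± 257 in cKO and 2057 ± 244 in control (0.30, SE 0.087; SD, n = 6 each). Cish, a feedback inhibitor switched on by STAT5, averaged 97.0 ± 27.9 in cKO and 93.5 ± 20.1 in control (log2 difference 0.029, SE 0.19, adjusted p = 0.964). Socs1, a direct inhibitor of JAKs, averaged 10.8 ± 2.88 in cKO and 14.9 ± 4.18 in control (-0.43, SE 0.23, adjusted p = 0.527). Socs3 averaged 69.6 ± 7.15 in cKO and 53.6 ± 12.5 in control (SD, n = 6 each; 0.39, SE 0.15, adjusted p = 0.457). A further 8 listed targets were below the filter and not tested. Of these, Arg1, Ccl22, Irf4, Osm and Fcer2a had higher means in cKO, and Ccl24, Retnla and Gata3 lower ones. Arg1, a STAT6 target of macrophages, averaged 5.42 ± 2.28 in cKO and 1.6 ± 1.95 in control. The value of 3 reads was 1.98 to 3.56 in cKO and 2.47 to 5.64 in control libraries, so nothing is read from these means.

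**Figure D5:**
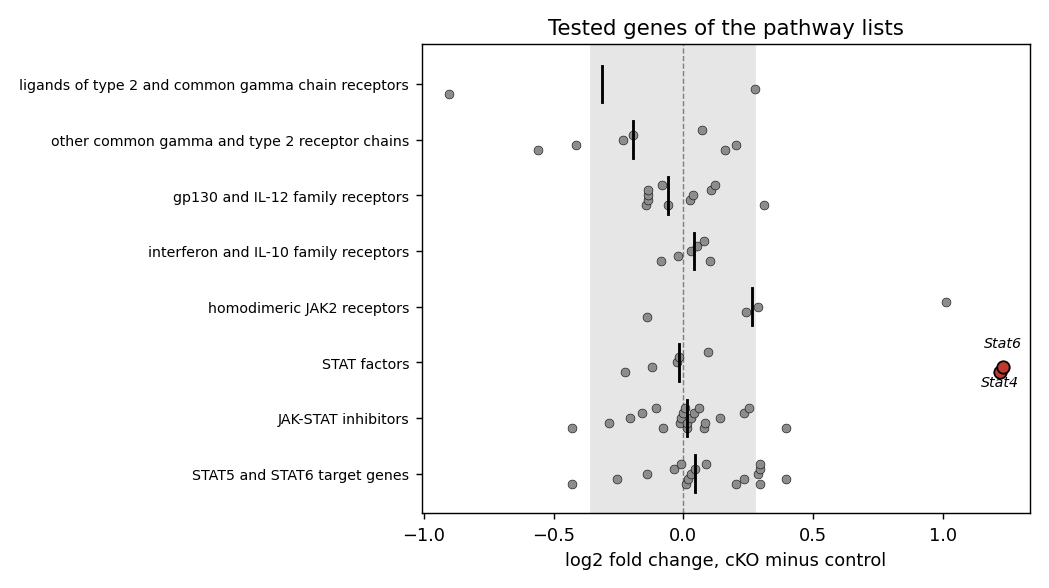
Log2 difference, cKO minus control (horizontal axis), of each tested gene in the 8 pathway lists (rows); black bars are list medians, red points are called genes, and the grey band leaves out the lowest and the highest 5% of all tested genes. Stat6 at 1.23 and Stat4 at 1.22 stand right of all other STAT genes, and the list medians lie between -0.31 and 0.26.

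Most of the listed markers of the blood lineages, in which these receptors are best known, had few reads. In the list of T, NK and innate lymphoid cells 2 of 14 genes were tested, with summed levels of 29.7 to 52.8 normalised reads in cKO and 31.9 to 73.9 in control libraries, and Cd3e averaged 0.542 in cKO and 0.561 in control. Of 8 mast cell, basophil and eosinophil genes in the table, Mcpt4, Ms4a2, Mcpt8 and Prg2 had no read in any library. Only Kit was tested, at 714 ± 86.5 in cKO and 637 ± 163 in control (SD, n = 6 each), and it was not called (limma adjusted p = 0.58). The sums of this list, 621 to 841 in cKO and 467 to 872 in control libraries, are mostly Kit. Of 12 dendritic cell and monocyte genes 5 were tested, none called, and Xcr1 and Clec9a had no read. Their sums were 309 to 366 in cKO and 257 to 628 in control. The B cell list moved with Crlf2: its sum was 135 to 254 in cKO and 316 to 460 in control libraries. That sum is mostly Ighm (191 ± 35.6 in cKO and 365 ± 56.2 in control, SD, n = 6 each; log2 difference -0.94, SE 0.14, limma adjusted p = 0.00153), the only gene of the list that was tested. The part of Ighm-expressing cells in the Crlf2 result was not tested.

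Microglia, which respond to IL-4 and IL-13 and arise outside the Cre lineage, were well represented. Their 14 markers summed to 7338 to 9424 normalised reads in cKO and 7460 to 9425 in control libraries, and none was called. P2ry12 averaged 487 ± 71.6 in cKO and 475 ± 86.5 in control, and Cx3cr1 841 ± 80.1 in cKO and 814 ± 85.1 in control (SD, n = 6 each). Of the 7 tested border macrophage markers, the 8 endothelial, the 8 fibroblast, the 8 excitatory neuron, the 7 inhibitory neuron and the 8 oligodendrocyte markers, none was called. Among 8 astrocyte markers Aqp4, the water channel of their end-feet, was called, at 3035 ± 284 normalised reads in cKO and 2109 ± 297 in control (SD, n = 6 each; log2 difference 0.53, SE 0.096, limma adjusted p = 0.00973).

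Among genes other than predicted models, the pattern most like that of Crlf2 over the 12 libraries was that of Pmaip1 (Pearson's r = 0.95), Fzd9 (0.945) and Scarna2 (0.923), out of 13151 compared. All 3 had lower cKO means, as any close match to a gene with separated groups must: Pmaip1 averaged 23.9 ± 6.71 in cKO and 47.2 ± 5.28 in control, Fzd9 59.6 ± 5.61 in cKO and 92.3 ± 9.75 in control (SD, n = 6 each). After the means of the 4 genotype-by-set groups had been taken off, the nearest were Rundc3a (r = 0.955), Rtn2 (0.949) and Palm (0.948), also over 12 libraries. Among the 9 genes, Jak1 ran opposite to Crlf2 on this measure (r = -0.816), as did Jak2 (-0.719), whereas Jak3 ran with it (0.674), and Il7r less so (0.53). These correlations describe libraries that share depth and scaling. The libraries also differ in a trend of level with exon length, from -0.107 log2 units per doubling of length (control library 3) to 0.0993 (cKO library 4). It was positive in cKO libraries 1, 2, 4 and 5 and control libraries 1 and 2, and negative in the others, so it is not balanced between genotypes. Crlf2 has the shortest and Jak1 the longest exon sequence of the 9. The correlations above were not computed again without this trend. With that trend removed, an alternative added after the data had been seen, the cKO minus control difference was -0.81 for Crlf2 and 0.17 for Jak1.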

How the data were processed

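RNA of 6 cKO and 6 control cortices (250 ng of total RNA each, ribosomal RNA depleted, directional kit, per the labels' protocols) was sequenced. Trim Galore, Bowtie, STAR and bedtools and the build mm9 are named in the submitters' processing notes. Per the file headers, the deposited values are a signal, counts that the authors scaled between libraries with DESeq2, and 100% of them were whole reads times 1 step per library within 0.01 reads. The same deposited table holds the authors' log2 fold change, its standard error, a Wald score, and a p-value with its adjusted value.

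Columns carry genotype and number only. In 8 of 12 columns the Y-linked reads disagree with the labelled sex of the same number, so columns were assigned to genotypes and the split by Y-linked reads replaced the planned sex term. The labels call the samples biological replicates and name no animals, and a p-value here speaks only of the spread over these libraries. Replicate pairs differed beyond sampling noise (7.22 to 170 chi-square per degree of freedom, 30 pairs), and none was merged.

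The test was limma 3.58.1 (R 4.3.3) on log2(value + 1), with trended prior variance and two-sided p, for genotype beside the Y-linked split, in the 14397 genes whose mean reached 10. Fold changes on this scale understate changes of low genes. edgeR 4.0.16 and DESeq2 1.42.0 on the recovered reads were alternatives. Only the limma fits for genotype and for the gap between sets were tried on simulated data. Exon lengths came from GENCODE M21 on GRCm38, which is not the build of the counts. They were found for 12921 genes (89.7%). The 9 genes and all lists were chosen with earlier results of these data known. Named besides the 9 were every called gene of each pathway list or, failing one, its tested gene with the largest difference, defining tissue markers, and the 3 genes most like Crlf2 by each measure. Other genes named were chosen after their values were seen. A few listed symbols had no row under that name and are not analysed here.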

Additional observations from a re-analysis of the deposited data

Results flagged for a closer look

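In 34 groups of 6 libraries (17 named genes in each genotype), 1 value stood far from the rest of its group by Dixon's criterion. Il7r had 26.6 normalised reads in control library 5, against 9.39 to 14.1 in the other 5 control libraries. The cKO libraries of this gene ran from 5.30 to 27.8. Chance flags about 1 in 20 groups. No named gene had a genotype difference whose gap between the sets with and without Y-linked reads was called.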

How the results depend on the processing

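Between genotypes 120 genes were called, and a fit with a filter at a mean of 50 called 58 (Il7r, Il2rg, Stat4, Il15, Prlr and Socs1 were not tested in it). The cause was not tested. The other alternatives gave 96 to 169, and leaving out 1 library gave 97 to 123. The replicate block gave 118. The numbers shared by libraries of both genotypes do not pair them by any label (correlations of same-numbered deviations 0.0911 to 0.497, own number best for 4 of 6), and the block changed no call named here. For the split by Y-linked reads, DESeq2 called 60 genes, against 11, and leaving out 1 library gave 9 to 19, with 19 without cKO library 3. The cause was not tested. For the gap between sets, leaving out 1 library called 0 to 7 genes, with 7 without control library 6.

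Crlf2 ran from -0.99 to -0.79 over 24 alternatives. Its groups are separated and it was chosen on this contrast, so its constant sign carries no weight. Il4ra, Il13ra1, Jak1 and Jak2 kept their direction in all 24 and Il2rg in all 23, and none of these 5 was called in any. Differences near 0 changed sign. Tyk2 was 0.051 without control libraries 4 and 5. Leaving out 1 library, Il7r ran from -0.042 to 0.36, Jak3 from -0.13 to 0.051 and Tyk2 from -0.13 to 0.014. For the Y-linked split, Jak2 ran from -0.072 to 0.026, Jak3 from -0.019 to 0.16 and Tyk2 from -0.089 to 0.053. For the gap between sets, Crlf2 ran from -0.16 to 0.28, Il7r from -0.59 to 0.49 (0.061 with edgeR), Il13ra1 from -0.020 to 0.31, Jak3 from -0.21 to 0.16 and Tyk2 from -0.10 to 0.22. At 4 to 28 reads per library, Il7r and Il2rg are the genes whose depth limits the comparison most.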

Other observations

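Crlf2, Csf2ra and Il3ra encode cytokine receptor chains whose human counterparts lie together in the pseudoautosomal region of the sex chromosomes. The group was put together after the values had been seen, with Crlf2 already chosen for its lower level. The lower cKO mean of all 3 thus carries no weight, and 50.1% of all tested genes had a difference below 0. Csf2ra was not called in the main limma fit, though it passed in some alternatives given above, and Il3ra was not tested in the main fit. Il3ra, the IL-3 receptor alpha chain, was below the filter at 3.56, 7.19 and 8.53 normalised reads (lowest, median, highest) in cKO libraries, against 5.01, 13 and 20.6 in control libraries. The groups overlapped. In the fit with a filter at a mean of 1, its log2 difference was -0.74 (SE 0.33, limma adjusted p = 0.473). Csf2rb, the signalling chain shared by the GM-CSF and IL-3 receptors, averaged 17.1 ± 6.53 in cKO and 14 ± 2.71 in control (SD, n = 6 each; log2 difference 0.20, SE 0.26, adjusted p = 0.765).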
